A study of Mus musculus with 6 samples.

Results

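Comp, Chad and Matn1 encode 3 extracellular proteins of cartilage that are not collagens. They were chosen by name from the 1285 genes of the authors' deposited table, with their group means in view, so those means are given here as a description and no test rests on them. The RNA was that of mouse bone marrow MSPCs, mesenchymal stem and progenitor cells, which support blood stem cells and can form skeletal tissue. Adult mice of 8 weeks, either control or Snai2-/- littermates, gave 3 libraries per genotype. Every library, control or mutant, was made from about 2000 cells that carried the green reporter Nes-GFP, driven by nestin sequences, and were negative for the leukocyte marker CD45, the erythroid marker Ter119 and the endothelial marker CD31. Snai2 encodes Slug, a zinc-finger repressor of the Snail family that binds E-box DNA. The labels do not describe how the Snai2 allele was made, which alleles the controls carried, or whether each library came from its own animal.

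Cartilage matrix is built on collagen fibrils and on aggrecan, a proteoglycan that holds water, and a set of smaller glycoproteins ties these together. Cartilage oligomeric matrix protein (COMP) is a pentamer of the thrombospondin family that binds several collagen molecules at once and helps fibrils assemble, and it is made in tendon and ligament as well as in cartilage. Chondroadherin, the product of Chad, is a leucine-rich repeat protein that binds collagen and a collagen-binding integrin on the cell surface, and it is found in cartilage and bone. Matrilin-1, the product of Matn1, forms filaments with von Willebrand factor A domains that link aggrecan and collagen, and it is known as a cartilage protein of narrow distribution. In marrow stroma these genes are of interest because skeletal progenitors can give rise to cartilage as well as to bone and fat.

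All 3 genes had the higher mean in Snai2-/- cells, by about 4-fold for Comp, 11-fold for Chad and more than 50-fold for Matn1. Comp (GRCm38 chromosome 8, 70373558 to 70382066, plus strand, 20 exons after merging transcripts) had, in the authors' deposited table, a control mean of 36.8 and a Snai2-/- mean of 158.4 (ratio 4.31, log2 2.11). Chad (chromosome 11, 94565047 to 94569127, plus strand, 4 merged exons) had, in the authors' deposited table, a control mean of 9.70 and a Snai2-/- mean of 107.6 (ratio 11.1, log2 3.47). Matn1 (chromosome 4, 130944385 to 130955475, plus strand, 8 merged exons) had, in the authors' deposited table, a control mean of 0.0605 and a Snai2-/- mean of 7.13 (ratio 118, log2 6.88). The order of the ratios was thus the reverse of the order of the control levels. The table gives 1 normalized mean per group, so no spread, SD or per-animal value stands beside any of these numbers.

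**Figure D1:**
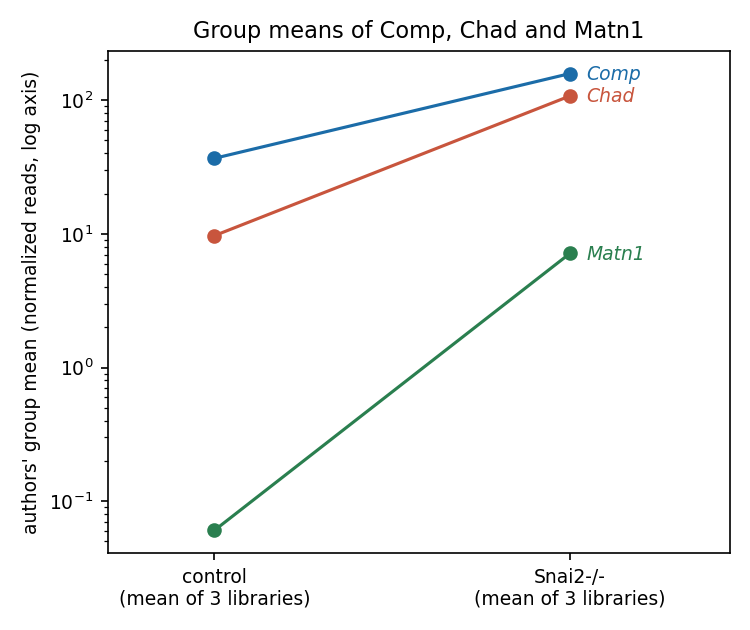
Group means of Comp, Chad and Matn1 in control and Snai2-/- cells, on a log axis of the authors' normalized reads; each point is the authors' mean of 3 libraries and lines join the groups. All 3 lines go up, from 36.8 to 158.4 for Comp, from 9.70 to 107.6 for Chad and from 0.0605 to 7.13 for Matn1.

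None of the 3 passed a false discovery rate (FDR) of 0.05. Among all 16718 genes that the authors tested, 0.0% passed that limit. In the authors' deposited table Comp stood at an unadjusted p of 0.0026 and FDR 0.353, rank 123 of 1285 by p. Chad stood there at an unadjusted p of 0.0197 and FDR 0.53, and Matn1 at an unadjusted p of 0.0219 and FDR 0.548 in the authors' deposited table. The sources used here do not give the tool behind these p-values. All 3 lay under an unadjusted p of 0.05, as did 7.69% of all genes tested (3.77% higher and 3.91% lower without Snai2). Being under that limit is what placed a gene in the table, so nothing is read from the count of 3.

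Size of ratio and size of p did not go together among the members. Snai2 itself had, in the authors' deposited table, a control mean of 636.0 and a Snai2-/- mean of 9.20, with the smallest p listed (4.5e-06). Matn1, with the largest ratio of the 3, ranked 668 by p in the authors' deposited table. Comp had the smallest ratio of the 3 and the smallest p. The ratio of Matn1 ranked 5 among the 631 genes with a higher mean, that of Chad ranked 37 and that of Comp ranked 160. Of the 4 genes above Matn1, 3 have a control mean at the table's lowest value, 0.0001, which sets their ratio, and the ratio of Matn1 itself rests on few control reads. A ratio of at least 4 was found for 13.4% of the 1285 listed genes and a ratio of at least 10 for 3.5%.

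**Figure D2:**
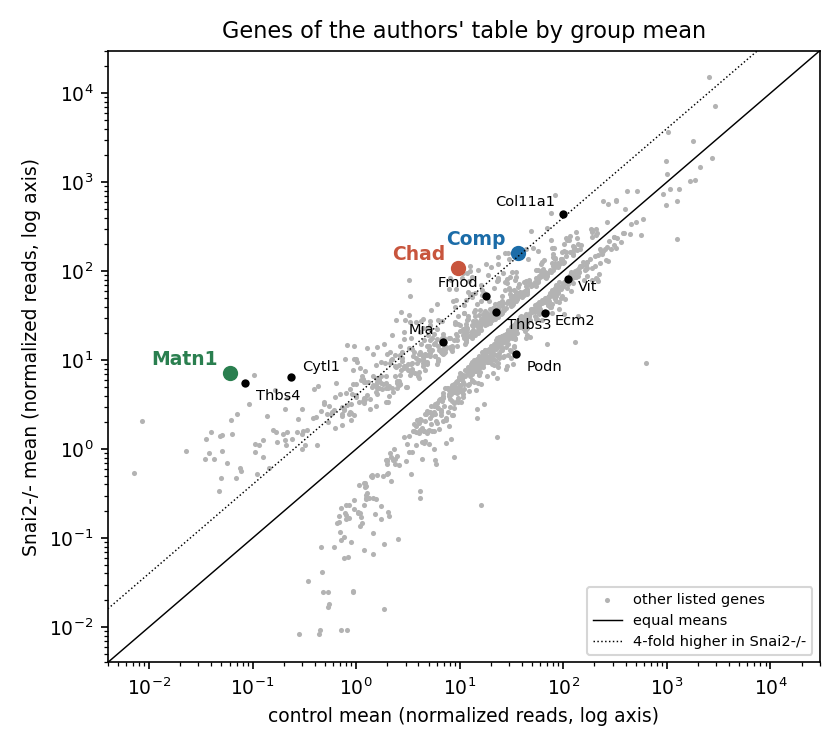
Control mean against Snai2-/- mean, both on log axes of normalized reads, for the genes of the authors' table. Left out are 7 genes whose mean in 1 group stands at the table's lowest value. Coloured points are Comp, Chad and Matn1. Black points are other listed members of the thrombospondin, leucine-rich repeat, other non-collagen cartilage protein and cartilage collagen lists. Grey points are all other listed genes, Mef2c and Npr2 among them. The 3 coloured points lie above the dotted line of a 4-fold higher Snai2-/- mean, Comp at 4.31 just above it, and Matn1 lies far to the left at a control mean of 0.0605.

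The reads behind the Matn1 control mean could be recovered from the numbers themselves. Nearly all of the lowest control means, once a constant of 0.0001 was taken off and the rest multiplied by 3 libraries, were sums of whole multiples of 3 steps (0.0177, 0.021 and 0.0254), as scaling each library's reads by its own depth would give. If the scale is CPM (reads scaled to a fixed library total), the steps of both groups correspond to libraries of 36700000 to 56400000 reads. A single whole-number solution was found for 24 of the 25 lowest control means and for 21 of the 25 lowest Snai2-/- means, within a relative 1e-07. The steps were chosen so that most of these same means came out whole, so these counts are partly fixed in advance. Taking each step as 1 read, which was not tested, the Matn1 control mean corresponded to 8 reads in all. They were 0 in the deepest control library, 5 in the next and 3 in the shallowest. The file does not tie these libraries to replicate numbers. The exact 95% Poisson interval of 8 reads ran from 3.45 to 15.8, which by counting error of the control reads alone allows a ratio between 59.9 and 273.

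The Matn1 mean in Snai2-/- cells corresponded to between 786 and 949 reads over 3 libraries, depending on how they were shared among the libraries. Many splits matched that mean (68), so whether 1 Snai2-/- library held most of these reads was not recoverable. Comp rested on 4338 to 6221 reads in control and 17450 to 21084 in Snai2-/- cells. Chad rested on 1145 to 1641 reads in control and 11859 to 14329 in Snai2-/- cells. At these depths the counting error of Comp and Chad is small beside their ratios, and the spread between libraries is the error that remains unseen. Reads from an amplified library without molecular identifiers are not independent molecules, so these intervals cover counting error only.

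Since the steps were shared by genes of different length, the means were taken as not corrected for gene length, and levels of different genes were compared per kilobase of merged exons. In control cells the level per kilobase was 12.4 for Comp, 5.77 for Chad and 0.0302 for Matn1. In Snai2-/- cells it was 53.4 for Comp, 64.1 for Chad and 3.56 for Matn1. Comp was 2.15 times Chad per kilobase in control cells and 0.833 times Chad in Snai2-/- cells, so their order changed between the groups, with no spread to set beside it. Matn1 stayed the lowest of the 3 in both groups. For scale, Col1a1, the main collagen of bone, stood at 388 per kilobase in control and 2323 in mutant cells, from the authors' deposited table. Of the summed difference between groups over the 3 genes, Comp made up 53.7%, Chad 43.2% and Matn1 the small rest. These shares are of the means without correction for gene length. Per kilobase the larger rise was that of Chad, from 5.77 to 64.1, against 12.4 to 53.4 for Comp.

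Within the thrombospondin family, Comp was accompanied by Thbs3 and Thbs4, each with the higher mean in Snai2-/- cells, so 3 of the 5 family genes were listed, 3 higher and 0 lower, where 7.69% of all genes tested were listed. Comp is 1 of the 3 and was chosen as a listed gene, so without it the count was 2 of 4. Thbs4, a thrombospondin of tendon and muscle that can assemble with COMP, had, in the authors' deposited table, a control mean of 0.0849 and a Snai2-/- mean of 5.50 (ratio 64.8, FDR 0.488.) Its control mean corresponded to 10 reads, all in the shallowest control library, where Matn1 had 3. Thbs3, the other member of the pentamer-forming branch, had, in the authors' deposited table, a control mean of 22.7 and a Snai2-/- mean of 34.8 (ratio 1.54, FDR 0.473.) Thbs1 and Thbs2, which form trimers, were not listed. Genes absent from the list either missed the limit on p or went untested, and the table does not say which.

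Within the leucine-rich repeat matrix proteins, the relatives of Chad went both ways. Of 18 such genes the table held 4 (22.2%, against 7.69% of all genes tested), of which 2 were higher and 2 lower. Their median log2 ratio was 0.29 with Chad among them, against -0.36 over all listed genes. Fmod, which encodes the collagen-binding fibromodulin, had, in the authors' deposited table, a control mean of 18.1 and a Snai2-/- mean of 52.9 (ratio 2.92, FDR 0.64.) Podn, which encodes podocan, had, in the authors' deposited table, a control mean of 34.8 and a Snai2-/- mean of 11.7 (ratio 0.336, FDR 0.614.) Ecm2 had, in the authors' deposited table, a control mean of 66.2 and a Snai2-/- mean of 34.1 (ratio 0.515, FDR 0.263.) Chad was the member with the largest ratio, and without it 1 of the 3 listed genes was higher and the median log2 ratio was -0.96. Decorin, biglycan and lumican, abundant members of the same family, were not listed.

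Matn1 was the only listed gene of the 4 matrilin genes, and it was chosen as a listed gene. Matn3, the other matrilin known for cartilage, and the more widely expressed Matn2 and Matn4 were not listed.

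Of 36 genes for other cartilage proteoglycans, proteins and collagens 4 were listed (11.1%), 3 higher and 1 lower, against 7.69% of all genes tested. None of 12 genes of cartilage proteoglycans, link proteins and their synthesis was listed, among them Acan, which encodes aggrecan, Hapln1, its link protein, and Prg4, which encodes lubricin. Of 16 other non-collagen cartilage proteins 3 were listed, 2 higher and 1 lower. Cytl1, which encodes a small secreted protein of chondrocytes, had, in the authors' deposited table, a control mean of 0.237 and a Snai2-/- mean of 6.44 (ratio 27.2, FDR 0.64.) Mia, also known as cartilage-derived retinoic acid-sensitive protein, had, in the authors' deposited table, a control mean of 6.89 and a Snai2-/- mean of 15.8 (ratio 2.29, FDR 0.529.) Vit, which encodes vitrin, a matrix protein with von Willebrand factor A domains like those of the matrilins, had, in the authors' deposited table, a control mean of 110.3 and a Snai2-/- mean of 81.8 (ratio 0.742, FDR 0.615.)

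Col11a1 was the only listed gene of 8 cartilage collagen genes. It encodes a chain of the minor fibril collagen that sets fibril width, and it had, in the authors' deposited table, a control mean of 99.4 and a Snai2-/- mean of 433.8 (ratio 4.36, FDR 0.64.) Col2a1, the main cartilage collagen, and the Col9a1, Col9a2 and Col9a3 chains, which COMP and matrilins bind, were not listed. Of 11 chondrocyte transcription factors only Mef2c was listed in the authors' deposited table (ratio 2.28, FDR 0.649), or 9.09% against 7.69% of all genes tested. Sox5, Sox6 and Sox9, which drive the cartilage programme, were not listed. Of 11 genes of chondrocyte signalling only Npr2, a natriuretic peptide receptor of the growth plate, was listed in the authors' deposited table (ratio 0.685, FDR 0.649), again 9.09%.

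Over these 8 lists together, which hold 85 genes with Comp, Chad and Matn1 among them, 14 were listed (16.5%, against 7.69% of all genes tested), 10 higher and 4 lower, and their median log2 ratio was 1.37. Without the 3 genes, 11 of 82 were listed, 7 higher and 4 lower, and the median was 1.19. Among all listed genes, 631 were higher and 654 lower, and the median was -0.36. The lists were drawn up with earlier results of these data known, and no listed gene of the 14 passed an FDR of 0.05.

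**Figure D3:**
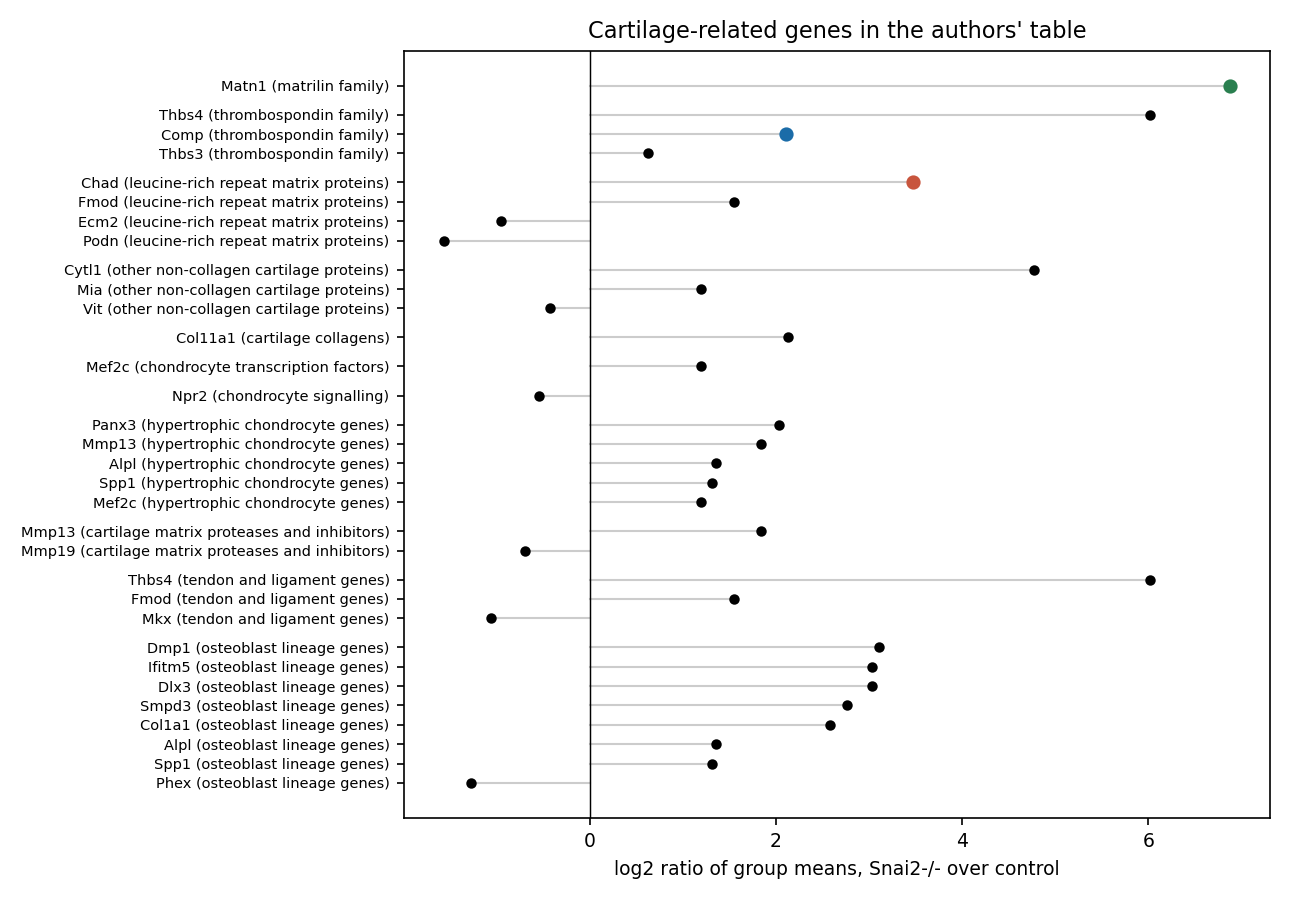
Log2 ratio of group means (Snai2-/- over control) for each gene of the cartilage, tendon and bone lists that the authors' table lists; coloured points are Matn1, Comp and Chad, a gene on more than 1 list is drawn once per list, and points right of 0 have the higher mean in Snai2-/- cells. Matn1 (6.88) and Thbs4 (6.02) lie farthest to the right, and Podn (-1.57) farthest to the left.

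Partners of the 3 proteins were examined next. None of 8 genes for cell-surface receptors of these proteins and their families was listed, where 7.69% of all genes tested were. Among the 8 were the integrin genes Itga1, Itga2, Itgav, Itgb1 and Itgb3 and the thrombospondin receptors Cd36 and Cd47. With so few genes and so small a share, nothing is read from this count. Of 13 genes of matrix proteases and their inhibitors 2 were listed (15.4%, against the same 7.69%). Mmp13, a collagenase of hypertrophic cartilage and bone, had, in the authors' deposited table, a control mean of 1033 and a Snai2-/- mean of 3699 (ratio 3.58, FDR 0.385.) Mmp19, a protease that can cut COMP and aggrecan, had, in the authors' deposited table, a control mean of 19.8 and a Snai2-/- mean of 12.2 (ratio 0.617, FDR 0.574.) Adamts7 and Adamts12, also known to cut COMP, were not listed.

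COMP is also a tendon protein, and chondroadherin is also found in bone, so genes of those tissues were set beside them. Of 10 tendon and ligament genes 3 were listed (30%, against 7.69% of all genes tested), Thbs4 and Fmod higher and Mkx lower. Thbs4 and Fmod were also counted above, in the thrombospondin and leucine-rich repeat lists. Mkx, a transcription factor of tendon, had, in the authors' deposited table, a control mean of 19.7 and a Snai2-/- mean of 9.41 (ratio 0.478, FDR 0.58), and Scx and Tnmd were not listed. Of 8 genes of hypertrophic chondrocytes 5 were listed and 5 were higher, where 7.69% of all genes tested were listed, and their median log2 ratio was 1.36. They were Mmp13, Mef2c, Alpl, Spp1 and Panx3, of which Alpl and Spp1 are on the osteoblast list too. Mmp13 and Mef2c were also counted above, in the protease and transcription factor lists, so these counts are not separate. Col10a1, the collagen that marks hypertrophic chondrocytes, and Ihh were not listed. Of 20 osteoblast-lineage genes 8 were listed (40%, against the same 7.69%), 7 higher and 1 lower, and their median log2 ratio was 2.67. The summed means of those 8 were 6053 in control and 24141 in Snai2-/- cells, most of it Col1a1 and Spp1, and without these genes 576.1 and 1640.

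Markers of other cells were examined in the same comparison. Of 10 neutrophil granule genes 7 were listed (70%, against 7.69% of all genes tested) and 7 had the higher mean, at FDR 0.518 to 0.649, and their summed means were 186.4 in control and 820.1 in Snai2-/- cells. The table gives no value for S100a8, Elane and Mpo, also on that list. Of the 7 annotated markers that the sort selects against, among them Ptprc and Pecam1, none was listed, so their levels cannot be given. Of 17 markers of marrow stromal progenitors 2 were listed (11.8%, against the same 7.69%), Ebf1 and Angpt1, both with the lower mean. Their FDR was 0.316 and 0.484, and their summed means were 533.7 in control and 336.4 in Snai2-/- cells. Nes, Lepr and Cxcl12 were not listed, so the labelled cell type could not be checked on their levels. The part that other cells play in the values of Comp, Chad and Matn1 was not tested, and in a bulk library a larger share of cells with a transcript and more transcript per cell cannot be told apart.

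The genes closest to each member in both group means were found by distance on the log2 scale, over 2 values per gene. Closest to Comp were Slc36a2, an amino acid transporter gene (ratio 4.10), Wisp1, a gene for a matricellular protein (5.52), and Cpe, the carboxypeptidase E gene (4.59), in the authors' deposited table. Closest to Chad were Igf2, a growth factor gene (8.93), Ifitm5, a bone-restricted gene (8.17), and Cgref1 (7.98), in the authors' deposited table. Closest to Matn1 were Thbs4 (64.8), the glutamate receptor gene Grik3 (65.7) and Hap1 (34.8), in the authors' deposited table. The distances were 0.297 to 0.368 for Comp, 0.223 to 0.373 for Chad and 0.617 to 1.31 for Matn1. No gene was thus as close to Matn1 as those closest to the other members. On a log scale a control mean of few reads moves far with each read, and genes at the table's lowest value were left out. The larger distances are therefore not read as a trait of Matn1.

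The 3 genes lie on 3 chromosomes, and the surroundings of Chad and Matn1 were examined. Chad lies inside Acsf2, an acyl-CoA synthetase gene on the opposite strand (chromosome 11, 94557102 to 94601871), and shares 0 exon bases with it. Acsf2 had, in the authors' deposited table, a control mean of 13.0 and a Snai2-/- mean of 7.97 (ratio 0.615), in the direction opposite to Chad. The library chemistry does not mark the strand, so reads from an Acsf2 intron cannot be told apart from reads of Chad exons. Col1a1 starts 371.2 kb from Chad and was higher (ratio 5.99), while Samd14, 444.8 kb away, was lower (ratio 0.516), in the authors' deposited table. Within 500 kb of Chad 3 of 25 protein-coding genes were listed, 1 of them higher, and the bone transcription factor gene Dlx3, just outside at 555.1 kb, was higher (ratio 8.16) in the authors' deposited table.

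Within 500 kb of Matn1 there were 4 protein-coding genes and none was listed. Over the annotation, 5.4% of protein-coding genes were listed.

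**Figure D4:**
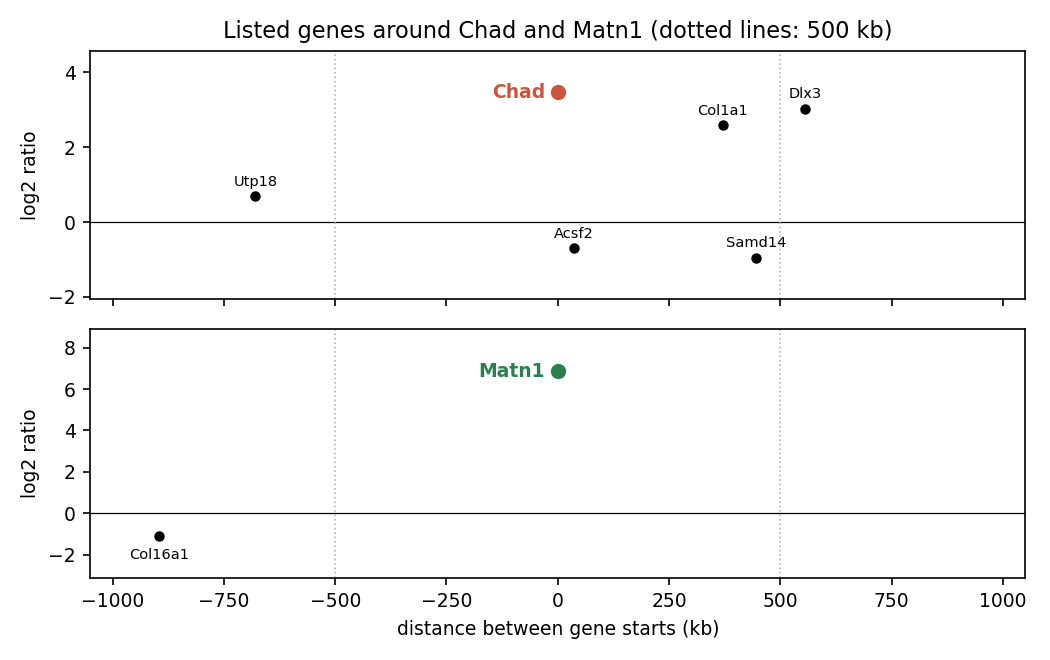
Log2 ratio of group means (Snai2-/- over control) of listed genes within 1000 kb of Chad (top) and Matn1 (bottom), by distance between gene starts in kb; coloured points are Chad and Matn1, black points are their listed neighbours, and dotted lines mark 500 kb. Chad stands beside Col1a1, Dlx3 and Utp18, which were higher, and Acsf2 and Samd14, which were lower. No listed gene lies within 500 kb of Matn1, and Col16a1, farther away, was lower.

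The promoters are shown because Slug binds E-box DNA and the 3 genes had the higher mean in cells without Snai2. RefSeq sequence on GRCm38.p6 was at hand for 2 of the 3 genes, Matn1 and Chad. Both runs are the 250 bases before the start of the gene, 5′ to 3′ on its own strand, and capitals mark matches on either strand to a Snail-type E-box, a Runx core, a Sox core or a TATA box.
Matn1 (chr4:130944135-130944384, plus strand): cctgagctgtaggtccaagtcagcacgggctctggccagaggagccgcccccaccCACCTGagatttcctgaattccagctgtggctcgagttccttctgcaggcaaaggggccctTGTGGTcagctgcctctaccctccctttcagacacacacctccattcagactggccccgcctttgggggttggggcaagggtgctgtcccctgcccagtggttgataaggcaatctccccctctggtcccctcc
Chad (chr11:94564797-94565046, plus strand): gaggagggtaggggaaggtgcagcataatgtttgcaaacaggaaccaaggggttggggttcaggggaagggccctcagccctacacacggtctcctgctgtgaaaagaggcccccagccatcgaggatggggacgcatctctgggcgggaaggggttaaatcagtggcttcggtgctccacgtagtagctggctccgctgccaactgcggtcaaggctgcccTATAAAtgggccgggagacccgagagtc

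Matn1 held 1 match to CAGGTG, the E-box that Snail family repressors bind, on the opposite strand, beginning at -195 from the start, and 17.2% of all 32851 promoter windows of this length held at least 1. Chad held none in this window. Matn1 also held 1 TGTGGT, a core bound by Runx factors, at -134, found in 14% of windows, and Chad held 1 TATAAA, the TATA box, at -28, found in 12.4% of windows. The general E-box CANNTG, which includes the Snail-type E-box, matched 3 times before Matn1 and 1 time before Chad, and 66.2% of windows held it. Neither held ACAAAG, a core bound by Sox factors, which 16.5% of windows held. A match of these letters is a description of the sequence and shows no binding.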

How the data were processed

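The deposited file is the authors' table of 1 comparison, mutant against wildtype, read here as Snai2-/- against control because the labels hold no further group. Its columns, per the file headers, are the least-squares means of both groups, their ratio, a signed fold change, an unadjusted p-value and a step-up FDR. The deposited group means are a normalized signal in a unit that no source used here names, and every listed gene has an unadjusted p below 0.05. Trim Galore, HTSeq, edgeR 3.12.0 and the mm10 build are named, per the submitters' processing notes, with no role for any. Per the labels' protocols, libraries were made with SMART-Seq and Nextera XT kits. No model was fitted here, because the file used here holds group means only; p and FDR are the authors'.

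That the authors tested 16718 genes follows from the step-up FDR (its maximum over genes of FDR times rank over p). Steps of 1 read were found from the 25 lowest means of each group and refined on the 60 lowest, after an offset of 0.0001. Single whole-number solutions were found for 50 of the 60 lowest control means and 49 of the 60 lowest Snai2-/- means, and the other 10 and 11 had no whole solution. On simulated tables with whole reads, 180 of 180 means were solved correctly, and 1 of 3000 random means was solved by accident. The simulated tables thus lacked whatever left some real means without a whole solution. Coordinates and exon lengths are from GENCODE M21 on GRCm38, the assembly mm10 denotes, where 1247 of 1285 symbols matched 1 gene.

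Members, lists and motifs were chosen with earlier results of these data known. Named genes are the members, Snai2, listed genes of the family, cartilage, receptor and protease lists, up to 4 listed genes of each other list, listed genes within 500 kb, and the 3 closest genes per member. Panx3, listed genes beyond 500 kb and genes named as not listed fall outside that rule and were chosen after the table was seen. Computing used scipy 1.17.1, pandas 2.3.3 and numpy 2.4.6 in Python 3.11.15, and figures matplotlib 3.10.9. Genes around Comp are not reported here.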

Additional observations from a re-analysis of the deposited data

How the results depend on the processing

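A pseudocount added to both group means kept every member higher in Snai2-/- cells. The log2 ratio of Matn1 went from 6.88 to 6.66, 5.49 and 2.94 with pseudocounts of 0.01, 0.1 and 1, that of Chad from 3.47 to 3.46 with 0.1 and 3.34 with 1, and that of Comp from 2.11 to 2.10 with 0.1 and 2.08 with 1. No member passed an FDR of 0.05, 0.1 or 0.25, while 1 had an unadjusted p below 0.01 and 3 below 0.05. Over all genes tested the shares were 0.0% at FDR 0.05 and 7.69% at an unadjusted p below 0.05. Shares of all genes at the other limits were not computed, so the member counts there have no background beside them. Snai2 itself (0.0758 in the authors' deposited table) lay under the FDR limit of 0.1. Of the 10 higher and 4 lower genes of the cartilage lists, 7 and 4 had a higher-group mean of at least 10. A difference of at least 2-fold was found for 9 and 1, and an unadjusted p below 0.02 for 5 and 1. Fewer genes remain by construction in each. All these higher counts include Comp and Chad, and the 2-fold count Matn1 too, which were chosen with their values in view. Among all 1285 listed genes, 353 were at least 2-fold higher and 237 at least 2-fold lower in Snai2-/- cells. Widening the window from 500 to 1000 kb took the listed genes near Chad from 3 of 25 protein-coding genes (12%) to 5 of 40 (12.5%). Near Matn1 it took them from 0 of 4 to 1 of 19 (5.26%), where 5.4% of all protein-coding genes were listed. On the strand of the gene alone, the Snail-type E-box before Matn1 was not matched (0), because its match lies on the opposite strand. The double-stranded site is the same in both searches. Chosen after seeing the data, other tolerances and steps found without Matn1 gave the same 8 control reads. No paired analysis was possible because the file used here holds group means only, so the replicate block, left-out replicates, edgeR and DESeq2 were not run.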
